A study of Mus musculus with 9 samples.

Results

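Cxcl1, Cxcl2, Cxcl3 and Cxcl5 encode CXC chemokines that attract neutrophils, and Cxcr2 encodes the receptor on which they act. The 5 genes were taken by symbol from tables of 55335 genes. 4 of the 5 passed the filter on low counts, as did 18259 genes in all, and Cxcl3 did not. RNA was sequenced from the leg muscles of 9 mice of WT genotype and strain c57b6l (the labels' spelling), 1 library per mouse, and every mouse had a hindlimb model named for suspension and ischemia. In 3 mice aspirin, an inhibitor of the cyclooxygenases that make prostaglandins, was combined with a hydrogel made of peptide (the hydrogel libraries). Another 3 had aspirin alone, and 3 had no treatment (the controls). The labels give no dose, time after the injury, age or sex, and uninjured muscle and hydrogel without aspirin were not analysed here.

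Chemokines of this family carry a glutamate-leucine-arginine motif ahead of their CXC cysteines, are held on the vessel wall by heparan sulphate, and signal through CXCR2, a Gi-coupled receptor that drives neutrophils to arrest, crawl and leave the vessel. Macrophages, endothelium, fibroblasts and other tissue cells transcribe them quickly in answer to IL-1, TNF or microbial products, largely through NF-κB, and IL-17 prolongs the life of their mRNA. In injured muscle neutrophils are the first leukocytes to arrive, and they clear debris ahead of the macrophages.

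Replicates differed widely. Total counts ran from 32197791 to 48170537 per library. Aspirin replicate 1 stood apart: over 14572 genes its median Spearman correlation with the rest was 0.780, and that of each of the other 8 was 0.929 to 0.954, and 12 muscle fibre markers summed to 23659 CPM in it, against 106286 to 320390 CPM elsewhere (CPM, counts scaled to a common library size after TMM). Hydrogel replicate 3 lay farthest on the other side of the first principal component. The samples also carry a code of unstated meaning. The hydrogel libraries share one code number, the controls another, Aspirin replicates 1 and 2 a further one, and Aspirin replicate 3 has its own, so what the code marks and the treatment cannot be told apart.

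The 4 ligand genes lie on the plus strand of chromosome 5 in mm10, within 146579 bases. In GENCODE vM21 they are Cxcl5 (ENSMUSG00000029371, 90759360 to 90761624), Cxcl3 (ENSMUSG00000029379, 90786103 to 90789600), Cxcl1 (ENSMUSG00000029380, 90891241 to 90893115) and Cxcl2 (ENSMUSG00000058427, 90903871 to 90905938). Cxcr2 (ENSMUSG00000026180, 74153989 to 74161246) lies on the plus strand of chromosome 1. All 5 are protein-coding, and 0 exons of other genes overlap theirs. Transcripts of Cxcl2 and Cxcl3 share an identical run of 110 bases, so reads may be split between this pair and the counts of each are uncertain; Cxcl1 shares at most 23 identical bases with either, and Cxcl5 at most 12.

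The 250 bases upstream of the RefSeq starts of Cxcl1, Cxcl2 and Cxcl3 are shown because the 3 genes were high in the same libraries and share a run of letters of the κB kind, the sequence that NF-κB binds. They are RefSeq sequences of GRCm38.p6, plus strand, at chr5:90890995-90891244, chr5:90903649-90903898 and chr5:90785851-90786100, and the capitals mark GGGAATTTCCC, the longest run of letters common to all 3 windows.
Cxcl1: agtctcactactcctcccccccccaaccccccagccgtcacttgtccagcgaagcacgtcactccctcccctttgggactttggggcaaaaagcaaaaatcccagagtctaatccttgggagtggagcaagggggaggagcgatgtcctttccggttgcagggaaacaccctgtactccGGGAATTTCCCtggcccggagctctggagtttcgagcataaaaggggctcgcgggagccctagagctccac
Cxcl2: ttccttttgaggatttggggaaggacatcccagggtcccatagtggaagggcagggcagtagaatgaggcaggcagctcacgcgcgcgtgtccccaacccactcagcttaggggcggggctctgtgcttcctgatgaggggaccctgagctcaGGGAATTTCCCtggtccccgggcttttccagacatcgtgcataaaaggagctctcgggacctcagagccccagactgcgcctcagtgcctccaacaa
Cxcl3: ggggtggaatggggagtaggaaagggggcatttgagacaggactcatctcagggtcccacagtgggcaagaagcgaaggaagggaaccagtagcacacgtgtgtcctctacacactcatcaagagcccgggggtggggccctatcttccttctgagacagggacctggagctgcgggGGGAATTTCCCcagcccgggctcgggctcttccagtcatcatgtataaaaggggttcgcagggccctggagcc
Counted back from each RefSeq start, these 11 letters lie at -71 to -61 in Cxcl1, -97 to -87 in Cxcl2 and -73 to -63 in Cxcl3. The RefSeq start of Cxcl2 lies 28 bases beyond the GENCODE start given above, so the end of its window is inside the GENCODE gene, and from that start the letters lie at -69 to -59. For Cxcl1 and Cxcl3 the starts differ by 4 and 2 bases. Searched on both strands, they occurred in 14 of 32851 mouse promoter windows of this length (0.0426%), and not in the window of Cxcr2. A TATA-like ATAAAAG, present in 4.83% of windows, lies between the κB letters and the start in the 3 ligand promoters shown. TGANTCA, the AP-1 form, present in 6.75%, is in none of the 4 windows searched (Cxcl1, Cxcl2, Cxcl3 and Cxcr2). No window was available for Cxcl5, so whether it holds any of these letters was not examined. The letters were taken from these windows, so their presence in all 3 is no test, and a match is a description of the sequence.

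The ligands were high in Aspirin replicates 1 and 3 and low in the other 7 libraries, Aspirin replicate 2 included. Cxcl1, also called KC, an early ligand of injured tissue, was counted at 0.387, 1.27 and 0.200 CPM in the hydrogel libraries (replicates 1 to 3), 7.50, 1.08 and 4.43 CPM in the aspirin libraries and 0.370, 0.201 and 1.02 CPM in the controls. Cxcl2, the macrophage inflammatory protein MIP-2, was counted at 0.339, 0.725 and 0.10 CPM in the hydrogel libraries, 6.60, 0.328 and 6.97 CPM in the aspirin libraries and 0.573, 0.112 and 0.145 CPM in the controls. For Cxcl1 every aspirin library lay above every control, although at the nearest point (46 against 35 counts) the exact Poisson intervals of 0.789 to 1.44 and 0.709 to 1.42 CPM overlap; for Cxcl2 the groups overlap. Hydrogel replicate 2 was the highest for both genes among the libraries other than Aspirin replicates 1 and 3.

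Cxcl5, the ligand also known as LIX, had the widest range of the 4 tested genes. It was counted at 0.145, 0.121 and 0.167 CPM in the hydrogel libraries, 17.3, 0.187 and 25.1 CPM in the aspirin libraries and 0.443, 0.112 and 0.145 CPM in the controls. Behind these levels stand 908 and 880 counts in Aspirin replicates 1 and 3, and 4 to 24 counts in each of the other 7 libraries. Every hydrogel library lay below every aspirin library, but Aspirin replicate 2, at 8 counts, had an interval of 0.0809 to 0.369 CPM that overlaps the intervals of all 3 hydrogel libraries. Such intervals cover counting error only.

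Cxcl3, a ligand close in sequence to Cxcl2, was counted in the aspirin libraries alone, with 47, 3 and 49 counts (0.897, 0.0703 and 1.40 CPM), and stood at 0 counts in all 3 hydrogel libraries and all 3 controls. With a floor of 3 counts per library, 0 counts allow up to 0.0726 to 0.10 CPM in the hydrogel libraries and up to 0.0554 to 0.0873 CPM in the controls. The mean of the aspirin libraries, 0.789 ± 0.672 CPM (SD, n = 3), was thus at least 11.3-fold higher than in the controls, and the hydrogel libraries were at least 8.99-fold lower than the aspirin libraries. Aspirin replicate 2 lay at the floor itself.

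**Figure D1:**
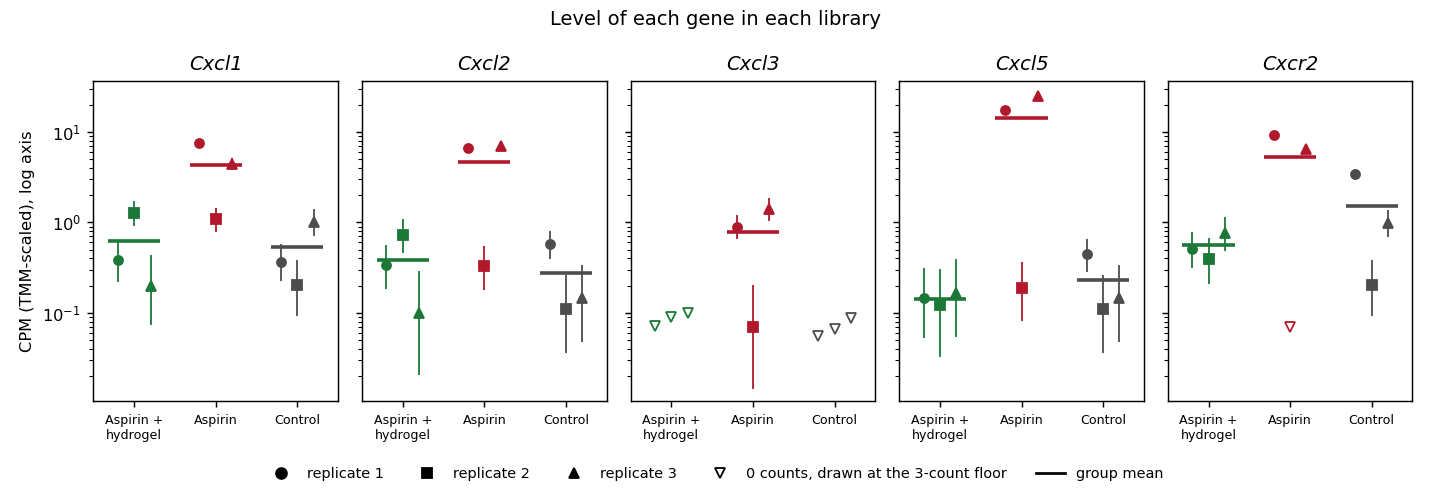
CPM of each of the 5 genes (log axis) in each library, by group; vertical bars are exact 95% Poisson intervals, horizontal bars group means, and open triangles are 0 counts drawn at the floor of 3 counts. Aspirin replicates 1 and 3 stand above the other 7 libraries in every panel. Aspirin replicate 2 stands among the hydrogel and control libraries for Cxcl1, Cxcl2 and Cxcl5 and at 0 for Cxcr2. For Cxcl3 its 3 counts lie at the floor, where the 0 counts of the hydrogel and control libraries are drawn.

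Aspirin replicates 1 and 3 both lay above each of the other 7 libraries for all 4 tested genes, a pattern found after their values were seen that 590 of the 18259 genes showed (3.23%). Cxcl3 showed it too. Aspirin replicate 1 is the library with few fibre transcripts, and Aspirin replicate 3 is not: its fibre markers summed to 256724 CPM.

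The makeup of the sum of these 4 ligands can be read from FPKM (the deposited unit, which divides by transcript length as well as by depth). The sum leaves out Ppbp, listed here among the other ligands with the glutamate-leucine-arginine motif. Ppbp ran from 0.107 to 2.23 FPKM in the hydrogel libraries, 1.59 to 6.69 FPKM in the aspirin libraries and 0.376 to 4.83 FPKM in the controls. The 4 ligands summed to 0.371, 0.934 and 0.129 FPKM in the hydrogel libraries, 24.2, 0.829 and 15.6 FPKM in the aspirin libraries and 0.736, 0.160 and 0.527 FPKM in the controls. Cxcl5 made up 55.6% and 69.0% of the sum in Aspirin replicates 1 and 3 and led there. It made up 5.93% to 35.3% in the hydrogel libraries, 11.7% in Aspirin replicate 2 and 9.66% to 34.6% in the controls. Cxcl1 led in all of those except Control replicate 1, where Cxcl2 held 37.7%. Shares in the 7 low libraries rest on 14 to 75 counts for the 4 genes together. FPKM carry no TMM scaling. Set against counts divided by each library's total, without TMM, the deposited FPKM differed between libraries by up to 1.48-fold for Cxcl2 and Cxcl3 and by up to 1.24-fold for Cxcl5.

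**Figure D2:**
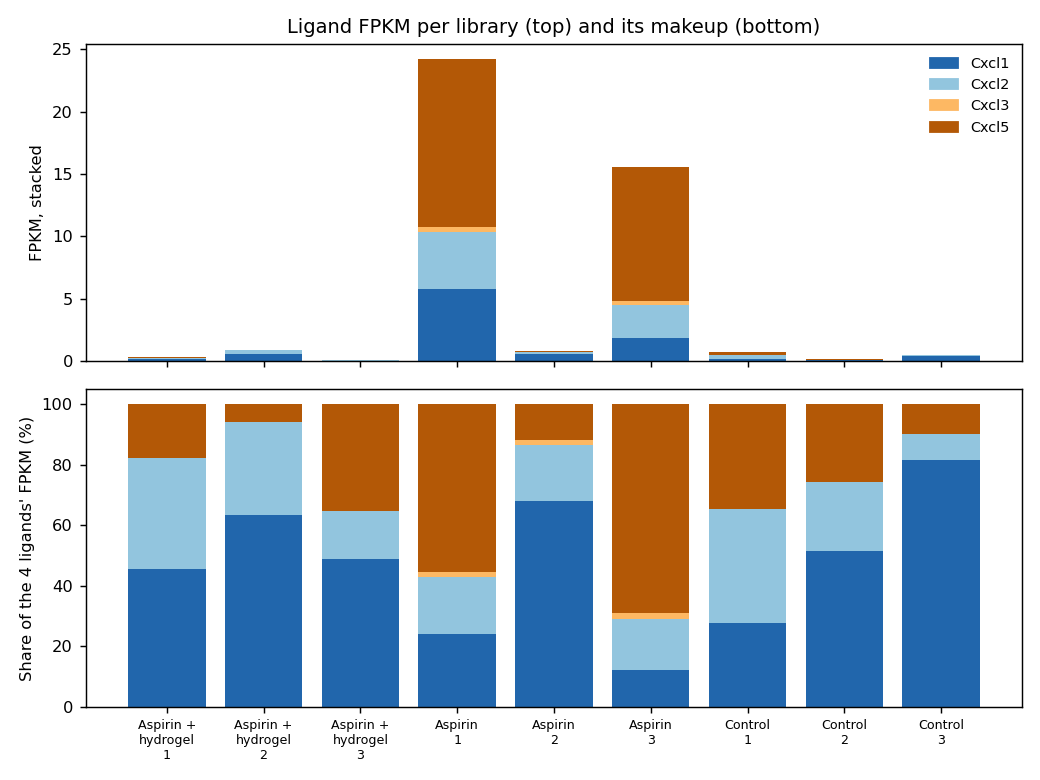
Stacked FPKM of the 4 ligand genes in each library (top) and each ligand's share of that sum in percent (bottom). Aspirin replicates 1 and 3 reach 24.2 and 15.6 FPKM with Cxcl5 as the main part, while the other 7 libraries stay at or below 0.934 FPKM.

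Cxcr2, the receptor, had a different order of libraries. It was counted at 0.508, 0.393 and 0.768 CPM in the hydrogel libraries, 9.22, 0 and 6.49 CPM in the aspirin libraries and 3.40, 0.201 and 0.989 CPM in the controls. Aspirin replicate 2, with 0 counts and a floor of 0.0703 CPM, was the lowest library, while Control replicate 1, with 184 counts, came next after Aspirin replicates 1 and 3. The groups overlap in the comparisons of hydrogel with control and of aspirin with either. In bulk tissue fewer cells of a type and less RNA per cell cannot be told apart.

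The comparison of aspirin alone with untreated muscle asks how these genes differ with the drug. Cxcl5 averaged 14.2 ± 12.8 CPM in aspirin libraries and 0.234 ± 0.183 CPM in controls (SD, n = 3 each), which edgeR fitted as 5.88 ± 1.40 on the log2 scale (SE; 95% interval 2.71 to 9.05, adjusted p = 0.747 by its quasi-likelihood test). Cxcl2 averaged 4.63 ± 3.73 CPM in aspirin libraries and 0.277 ± 0.257 CPM in controls (log2 fold change 4.03 ± 1.19, interval 1.33 to 6.72), and Cxcl1 averaged 4.34 ± 3.21 against 0.530 ± 0.431 CPM (3.04 ± 0.96, interval 0.88 to 5.21), both with an adjusted p of 0.753 by edgeR. Cxcr2 averaged 5.23 ± 4.73 CPM in aspirin libraries and 1.53 ± 1.67 CPM in controls (1.77 ± 1.48, interval -1.58 to 5.11, adjusted p = 0.810 by edgeR). The 3 ligands had unadjusted p-values of 0.00235, 0.00813 and 0.0112 by edgeR (Cxcl5, Cxcl2, Cxcl1). Their intervals, built from the same statistic, are clear of 0 and add no further evidence. By limma-voom, however, Cxcl5 was at 4.34 ± 2.95 and Cxcl2 at 3.38 ± 1.76, with unadjusted p-values of 0.176 and 0.0862. By edgeR 0 of the 4 genes passed the adjusted threshold of 0.05, as did 0 of 18259 genes (0%), while 1183 genes (6.48%) had an unadjusted p under 0.05. Separation of every aspirin library above every control, seen for Cxcl1, was seen for 5.54% of all genes. DESeq2, the alternative count test, called 33 genes higher after aspirin (0.181%), among them Cxcl5 (adjusted p = 2.04e-04) and Cxcl2 (0.0311), and not Cxcl1 (0.0853) or Cxcr2 (0.759). On counts simulated for this comparison, with no library set apart as Aspirin replicate 1 is, DESeq2 made 75 false calls and edgeR 4. DESeq2's calls in this report are thus less strictly held.

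The hydrogel with aspirin was set against aspirin alone to ask what the hydrogel adds. This comparison uses the same aspirin libraries as the last one, so the values are given side by side and are not independent. Cxcl5 averaged 0.144 ± 0.0230 CPM in hydrogel libraries and 14.2 ± 12.8 CPM in aspirin libraries (log2 fold change -6.60 ± 1.48, interval -9.94 to -3.25). For Cxcl2 the means were 0.388 ± 0.316 and 4.63 ± 3.73 CPM (-3.56 ± 1.17, interval -6.21 to -0.92), and for Cxcl1 they were 0.619 ± 0.571 and 4.34 ± 3.21 CPM (-2.80 ± 0.95, interval -4.95 to -0.66). All 3 had an adjusted p of 0.453 by edgeR, and Cxcr2, at 0.556 ± 0.192 in hydrogel libraries against 5.23 ± 4.73 CPM (-3.23 ± 1.58, interval -6.81 to 0.35), one of 0.464. By limma-voom Cxcl5 was at -4.81 ± 3.8 and Cxcl2 at -2.97 ± 2.03, with unadjusted p-values of 0.237 and 0.178. By edgeR again 0 of the 4 and 0 of 18259 genes (0%) passed, and 1996 genes (10.9%) had an unadjusted p under 0.05. Every hydrogel library lay below every aspirin library for Cxcl5, and for 8.75% of all genes. DESeq2 called 112 genes lower with the hydrogel (0.613%), among them Cxcl5 (adjusted p = 2.90e-05), and not Cxcl2 (0.0600), Cxcl1 (0.0929) or Cxcr2 (0.238).

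The hydrogel with aspirin and no treatment gave levels of the same order for the ligands. Log2 fold changes over control were 0.24 ± 0.91 for Cxcl1, 0.46 ± 1.11 for Cxcl2, -0.72 ± 1.34 for Cxcl5 and -1.46 ± 1.5 for Cxcr2, with intervals of -1.83 to 2.31, -2.06 to 2.98, -3.76 to 2.32 and -4.87 to 1.94. These intervals span several-fold differences either way, so neither a difference nor its absence was shown. edgeR's adjusted p was 0.987 to 0.992, and 0 of the 4 and 0 of 18259 genes (0%) passed, with 716 genes (3.92%) at an unadjusted p under 0.05. DESeq2 called 18 genes (0.0986%), none of them a member, with an adjusted p of 0.997 for all 4.

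Tested for any difference among the 3 groups at once, Cxcl5 had an unadjusted p of 0.000875, rank 14 of 18259 genes, and an adjusted p of 0.659 by edgeR. It was the call that turned on a library: without Aspirin replicate 2 the adjusted p was 0.0341, the 1 gene that edgeR then called, and over the 9 libraries left out in turn it ran from 0.0341 to 0.979. By DESeq2, which called 153 genes (0.838%), Cxcl5, Cxcl2 and Cxcl1 had adjusted p-values of 1.30e-05, 0.0182 and 0.0478, and Cxcr2 one of 0.458.

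**Figure D3:**
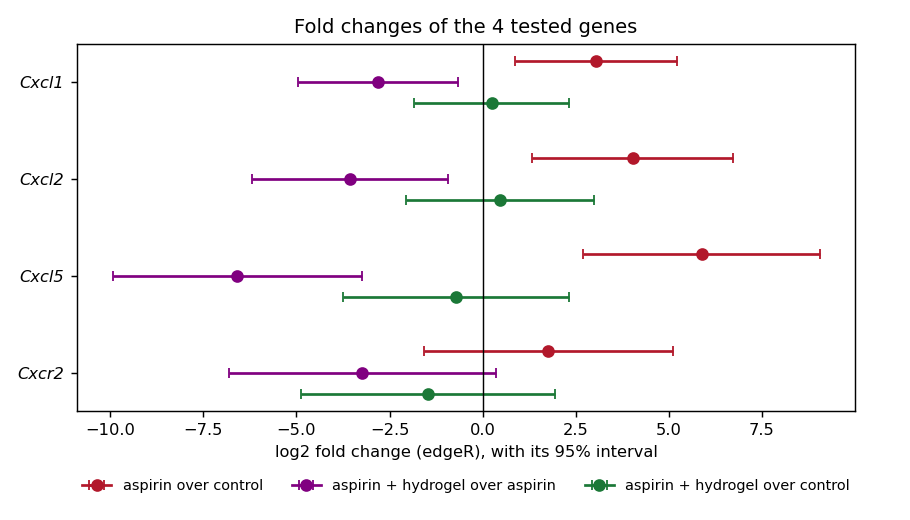
Log2 fold change of the 4 tested genes in the 3 comparisons (points) with 95% intervals (bars), from edgeR. Cxcl1, Cxcl2 and Cxcl5 lie above 0 for aspirin over control and below 0 for aspirin with hydrogel over aspirin, and every interval for aspirin with hydrogel over control crosses 0.

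The other genes of the cluster did not share the ligands' pattern. Between Cxcl5 and Cxcl3 lie Ppbp and Pf4, chemokines stored in platelets. Pf4 was counted at 13.2, 12.0 and 7.58 CPM in the hydrogel libraries, 53.7, 30.1 and 17.6 CPM in the aspirin libraries and 16.5, 12.5 and 14.5 CPM in the controls, with Aspirin replicate 2 above replicate 3. Every aspirin library lay above every hydrogel and control library for Pf4 (log2 fold change over control 1.22 ± 0.39, edgeR's adjusted p = 0.753; hydrogel over aspirin -1.63 ± 0.40, edgeR's adjusted p = 0.453, and 0.0278 by DESeq2). Ppbp ran from 0.200 to 2.81 CPM in the hydrogel libraries, 2.17 to 5.02 CPM in the aspirin libraries and 0.491 to 4.71 CPM in the controls, with overlapping groups. Its log2 fold change for aspirin over control was 0.04 ± 0.96 by edgeR. Cxcl15, between Cxcl3 and Cxcl1, had 2 counts in all. Beyond Cxcl2, Mthfd2l, a mitochondrial folate enzyme named here as the next gene, stayed within 4.01 to 6.77 CPM in all 9 libraries. Ereg, the growth factor epiregulin and farther along, was at 0 counts in all hydrogel libraries, at 2.19, 0 and 0.486 CPM in the aspirin libraries and at 0.850, 0 and 0 CPM in the controls.

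**Figure D4:**
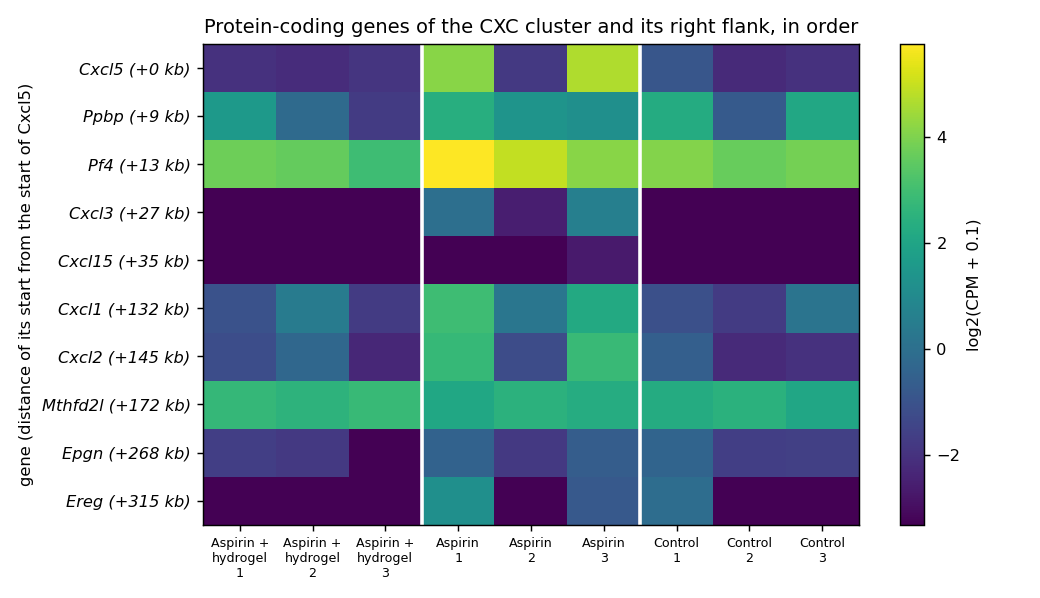
Log2(CPM + 0.1) of the protein-coding genes from Cxcl5 to Ereg, in chromosome order (rows, with the distance of each start from that of Cxcl5 in kb), in the 9 libraries (columns). The rows of Cxcl5, Cxcl3, Cxcl1 and Cxcl2 are brightest in Aspirin replicates 1 and 3, whereas Pf4 is also bright in Aspirin replicate 2 and Mthfd2l is even across libraries.

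The other tested genes with the same letters upstream did not share the ligands' order of libraries. Of the 14 genes with them, 10 are in the count table and 6 were tested, and Aspirin replicates 1 and 3 lay above the other 7 libraries for 2 of the 6, Cxcl1 and Cxcl2. Both the letters and the pattern were taken from these ligands, so their count is no test. Over all genes 3.23% showed the pattern, so its absence in Hpn, Il16, Lyzl4 and Zfp84 says little about the letters. Nfkbia, the inhibitor of NF-κB that NF-κB itself induces, stood at 16.1, 27.2 and 32.3 CPM in the hydrogel libraries, 53.2, 19.8 and 23.0 CPM in the aspirin libraries and 34.9, 48.6 and 41.4 CPM in the controls. It was high in Aspirin replicate 1 and not in replicate 3, whereas 4 of 12 NF-κB factors and feedback genes, Nfkbiz among them, had both of these libraries above the other 7.

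Il1b and Tnf, whose products induce these ligands, and the cytokine gene Il6 were high in the same pair of libraries. Il1b, interleukin-1β, was counted at 0.968, 0.846 and 0.234 CPM in the hydrogel libraries, 28.0, 2.30 and 36.2 CPM in the aspirin libraries and 2.42, 0.134 and 2.41 CPM in the controls. Its log2 fold change was 3.74 ± 1.18 for aspirin over control (edgeR's adjusted p = 0.753, 0.0417 by DESeq2) and -5.00 ± 1.26 for hydrogel over aspirin (edgeR's adjusted p = 0.453, 0.00103 by DESeq2). Tnf stood at 0.629, 0.393 and 0 CPM in the hydrogel libraries, 4.05, 0.328 and 2.57 CPM in the aspirin libraries and 0.610, 0.268 and 0.320 CPM in the controls. Il6 stood at 0, 0.272 and 0.0667 CPM in the hydrogel libraries, 3.61, 0.0937 and 0.943 CPM in the aspirin libraries and 0.0924, 0.246 and 0.291 CPM in the controls. For all 3 cytokines, as for the ligands, Aspirin replicate 2 was far below its group's other libraries. Csf3, the factor that mobilises neutrophils from marrow, had 247 and 30 counts in Aspirin replicates 1 and 3 and at most 5 in any other library; it did not pass the filter, nor did Il17a, with at most 5 counts in a library.

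A list of inflammatory cytokines and their receptors, not all of them inducers of these ligands, had 11 tested genes. By edgeR's estimate 9 of the 11 were higher in aspirin libraries than in controls, with a median log2 fold change of 0.80. In hydrogel libraries 10 were lower than in aspirin libraries (median -1.39, and -0.81 without Aspirin replicate 1). The medians over all genes were 0.05 and -0.05, and 54.0% and 46.7% of all genes were higher. 0 passed by edgeR in either comparison. DESeq2 called 1 higher after aspirin (0.181% of all genes) and 1 lower with the hydrogel (0.613%). 6 of the 11 had Aspirin replicates 1 and 3 above the other 7 libraries, beside 3.23% of all genes. Among 12 NF-κB factors and feedback genes 7 were higher and 5 lower in aspirin libraries (median 0.15), with 11 higher when library size alone set the scale and 4 higher without Aspirin replicate 1 (median -0.15). 10 of the 12 were lower in hydrogel libraries than in aspirin libraries (median -0.60), all 12 with library size alone and 8 without Aspirin replicate 1 (median -0.17), and 0 passed by edgeR or DESeq2. All 12 were lower in hydrogel libraries than in controls (median -0.36), where 47.1% of all genes were higher, again with 0 passing by either. Nfkbiz, an inducible partner of NF-κB, was highest in Aspirin replicate 1, at 28.6 CPM, with 12.7 CPM in Aspirin replicate 3 and 3.04 to 11.3 CPM in the other 7 libraries.

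Downstream of the receptor, 12 of 15 genes of CXCR2 signalling were higher in aspirin libraries than in controls (median 0.58), beside 54.0% of all genes. The count was 5 without Aspirin replicate 1 (median -0.073) and 14 without Aspirin replicate 3 (median 0.98). All 15 were lower in hydrogel libraries than in aspirin libraries (median -1.04), and 4 of the 15 were higher without Aspirin replicate 1 (median -0.31). Of all genes 46.7% were higher there with every library in. 0 passed by edgeR or DESeq2 in either comparison. Pik3cg, the lipid kinase that chemoattractant receptors switch on, stood at 3.65, 7.65 and 3.94 CPM in the hydrogel libraries, 31.4, 5.79 and 7.63 CPM in the aspirin libraries and 6.45, 1.88 and 4.94 CPM in the controls, and so was high in Aspirin replicate 1 alone. Cxcr1, the sister receptor, had at most 46 counts in a library and did not pass the filter. Of the other receptors of CXC chemokines, Cxcr4 reached 103 CPM in Aspirin replicate 1 and 3.54 to 33.2 CPM elsewhere. Ackr1, the scavenger on venules that binds these ligands, stood at 1.87 to 2.95 CPM in the hydrogel libraries, 0.398 to 2.75 CPM in the aspirin libraries and 0.465 to 2.35 CPM in the controls.

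Neutrophil markers shared the ligands' order of libraries in part. The summed level of 20 markers, 17 of them tested, was 49.1, 30.9 and 14.3 CPM in the hydrogel libraries, 528, 58.5 and 245 CPM in the aspirin libraries and 141, 31.1 and 195 CPM in the controls. 15 of the 17 were higher in aspirin libraries than in controls (median log2 fold change 1.65), beside 54.0% of all genes. Without Aspirin replicate 1 the median was 0.27, with 12 higher. All 17 were lower in hydrogel libraries than in aspirin libraries (median -3.28), and 16 without Aspirin replicate 1 (median -2.27). Of all genes 46.7% were higher in this second comparison. edgeR called 0 in either. DESeq2 called 2 higher after aspirin (0.181% of all genes) and 7 lower with the hydrogel (0.613%). In hydrogel libraries all 17 were also lower than in controls (median -1.71), where 47.1% of all genes were higher. There edgeR called 0 and DESeq2 called 1 lower (0.0986% of all genes called). For 11 of the 17 Aspirin replicates 1 and 3 lay above the other 7 libraries, beside 3.23% of all genes. In Aspirin replicate 2 the granule and surface genes Elane, Mpo, Cd177, Trem1, Ly6g and Mrgpra2b were at 0 counts, as was Cxcr2, while Csf3r, the G-CSF receptor, stood at 9.77 CPM there. Hydrogel replicate 3 had 8 of the 20 markers at 0 counts, Cd177, Trem1, Ly6g and Mrgpra2b included, and Hydrogel replicate 2, Control replicate 2 and Control replicate 3 had 3, 3 and 2 at 0. Controls 1 and 3 had marker sums of 141 and 195 CPM with ligand sums of 1.39 and 1.31 CPM, against 32.3 and 38.0 CPM in Aspirin replicates 1 and 3. The sum in Control replicate 3 rests largely on 1 marker, Mmp9, at 105 CPM there and at 4.20 and 9.29 CPM in the other controls. Mmp9 stood at 15.6 to 51.5 CPM in the aspirin libraries. The part of neutrophil content in the ligand levels was not tested.

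Fpr1, a receptor for formyl peptides of bacteria and damaged mitochondria, was higher in every aspirin library than in any other. It stood at 0.145, 0.272 and 0.10 CPM in the hydrogel libraries, 5.82, 1.92 and 6.77 CPM in the aspirin libraries and 0.758, 0.0893 and 0.553 CPM in the controls. Its log2 fold change was 3.36 ± 0.80 for aspirin over control (edgeR's adjusted p = 0.747, 0.00628 by DESeq2) and -4.78 ± 0.88 for hydrogel over aspirin (edgeR's adjusted p = 0.453, 2.90e-05 by DESeq2). Unlike Cxcl1, Cxcl2 and Cxcl5 it was higher in Aspirin replicate 2 than in all hydrogel and control libraries. S100a8, a subunit of calprotectin, stood at 4.02, 1.75 and 0.868 CPM in the hydrogel libraries, 76.4, 4.50 and 18.1 CPM in the aspirin libraries and 14.6, 1.59 and 11.5 CPM in the controls. Cxcr2 as a share of Csf3r, both in CPM, was 9.05%, 4.61% and 16.8% in the hydrogel libraries, 30.1%, 0% and 17.3% in the aspirin libraries and 39.5%, 6.82% and 11.1% in the controls, so the receptor did not keep a fixed ratio to this marker.

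Macrophage markers followed another order. The summed level of 16 markers was 1234, 1492 and 697 CPM in the hydrogel libraries, 3281, 3033 and 1459 CPM in the aspirin libraries and 1180, 751 and 1943 CPM in the controls. Aspirin replicate 2, low in every ligand, was thus close to Aspirin replicate 1, and Aspirin replicate 3, high in every ligand, was below Control replicate 3. 15 of the 16 were higher in aspirin libraries than in controls (median 0.95), beside 54.0% of all genes. All 16 were lower in hydrogel libraries than in aspirin libraries (median -1.12, and -0.72 without Aspirin replicate 1), where 46.7% of all genes were higher. 0 passed by edgeR, and DESeq2 called 1 lower in the second comparison (0.613% of all genes). In hydrogel libraries 7 were higher and 9 lower than in controls (median -0.07). Of 10 CC chemokines, which draw monocytes and other leukocytes, 9 were higher in aspirin libraries than in controls (median 1.81, and 1.12 without Aspirin replicate 1) and 9 lower in hydrogel libraries than in aspirin libraries (median -2.01). Ccl6 stood at 431, 245 and 50.0 CPM in the aspirin libraries, with replicate 2 above replicate 3, whereas Ccl7 stood at 16.8, 5.72 and 15.1 CPM there, the order of the ligands.

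**Figure D5:**
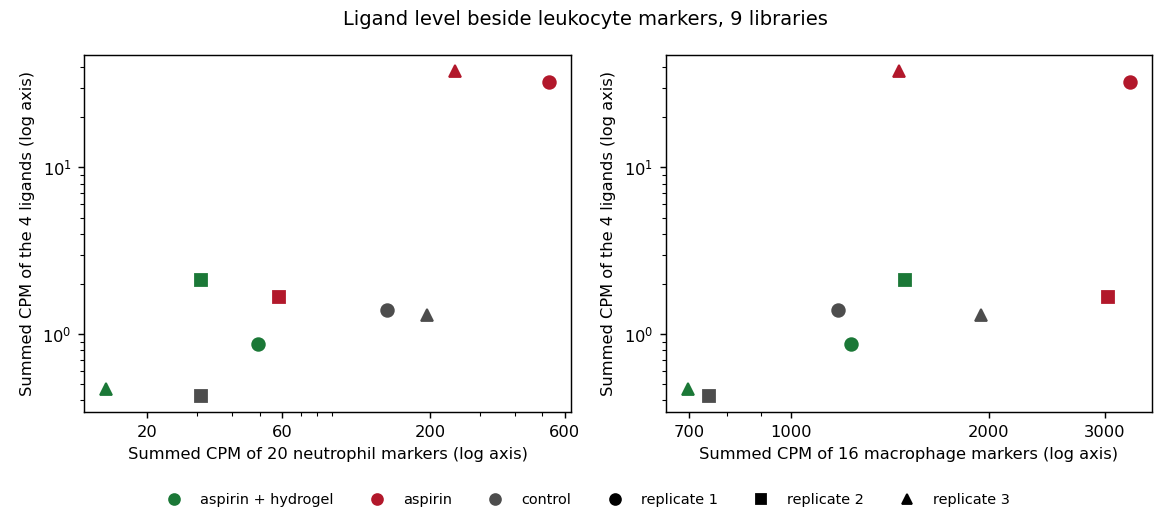
Summed CPM of the 4 ligands (vertical, log axis) beside the summed CPM of 20 neutrophil markers (left) and 16 macrophage markers (right, both log axes), 1 point per library. Aspirin replicates 1 and 3 stand at 32.3 and 38.0 CPM of ligand, and Aspirin replicate 2, with 1.66 CPM, lies beside Aspirin replicate 1 in macrophage markers.

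Genes of vessel entry had no steady direction between aspirin libraries and controls. Of 12 genes of neutrophil adhesion and entry, 8 were higher in aspirin libraries than in controls (median 0.43), beside 54.0% of all genes, and without Aspirin replicate 1 the count was 5 and the median -0.13 (0.65 without Aspirin replicate 3). In hydrogel libraries 10 were lower than in aspirin libraries (median -1.10), and 8 without Aspirin replicate 1 (median -0.44). Itgam, the integrin αM of neutrophils and macrophages, stood at 8.25, 19.6 and 7.78 CPM in the hydrogel libraries, 55.2, 35.8 and 51.1 CPM in the aspirin libraries and 23.8, 14.5 and 22.9 CPM in the controls, the 1 gene of this list that DESeq2 called (log2 fold change -2.00 ± 0.40 for hydrogel over aspirin, edgeR's adjusted p = 0.453, 0.00229 by DESeq2). Selp, the P-selectin on which leukocytes roll, stood at 2.49, 2.72 and 1.64 CPM in the hydrogel libraries, 7.52, 1.31 and 15.4 CPM in the aspirin libraries and 4.03, 1.5 and 2.76 CPM in the controls, high in the same pair as the ligands. All 12 endothelial markers were lower in aspirin libraries than in controls (median -0.94), where 54.0% of all genes were higher. DESeq2 called 3 of the 12, and 101 of 18259 genes in either direction, and edgeR called 0. In hydrogel libraries 10 of the 12 were lower than in controls (median -0.34), and 11 were higher than in aspirin libraries (median 0.46).

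The remaining lists give the makeup of each library. Summed lymphocyte markers reached 762 CPM in Aspirin replicate 1 and 7.20 to 317 CPM in the other 8, and Aspirin replicate 3 had the lowest sum. Summed red blood cell markers were 398 to 756 CPM in the hydrogel libraries, 428 to 4321 CPM in the aspirin libraries and 345 to 6195 CPM in the controls. Fibroblast markers summed to 4566 to 7056 CPM, 6078 to 11144 CPM and 6673 to 11219 CPM in the hydrogel, aspirin and control libraries, and adipocyte markers to 715 to 3527, 704 to 2085 and 2790 to 4467 CPM. Platelet markers summed to 21.6 to 27.3, 30.9 to 86.7 and 27.7 to 47.7 CPM, and mast cell markers to 26.9 to 43.8, 20.5 to 54.5 and 36.6 to 42.9 CPM. Pf4 is among the platelet markers and held 53.7 of the 86.7 CPM in Aspirin replicate 1. Of the 7 platelet markers tested, 2 were higher and 5 lower in aspirin libraries than in controls (median log2 fold change -0.47), beside 54.0% of all genes higher. Keratinocyte markers summed to 207 CPM in Control replicate 1 and to 19.3 to 37.1 CPM in the other 8 libraries, and Krt5 and Krt14 were detected in Controls 1 and 3 and at 0 counts in the other 7. The part of these differences in makeup in the results was not tested.

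The closest profiles to each gene over the 9 libraries were sought among 13228 genes averaging at least 1 CPM, by the root mean square difference of log2 CPM after each gene was centred on its own mean. For Cxcl1 they were Mefv (0.50), Inhba (0.61), Ccl7 (0.65), Clec4e (0.65) and Tfec (0.68). For Cxcl2 they were Draxin (0.80), Clec4e (0.81), Ifitm1 (0.85), Cxcl1 (0.98) and Cyp7b1 (0.99), and for Cxcl5 Cxcl2 (1.21), Clec4e (1.24), Il1b (1.32), Slc13a3 (1.33) and Arg2 (1.39). Clec4e, the receptor Mincle, which senses damaged cells and fungal and mycobacterial glycolipids, is on all 3 of these lists and stood at 0.556, 0.604 and 0.334 CPM in the hydrogel libraries, 12.8, 0.867 and 9.43 CPM in the aspirin libraries and 0.702, 0.380 and 1.02 CPM in the controls. For Cxcr2 the closest were Mcemp1 (1.14), S100a9 (1.20), Cd300lf (1.24), Chl1 (1.44) and Mpo (1.47), and none of its 5 is on a ligand's list. These differences describe 9 libraries in which the same pair is high and share their depth and makeup.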

How the data were processed

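The authors deposited counts per Ensembl gene, whole numbers that were not normalised, and FPKM values for the same 9 libraries. Per the labels' protocols, a SMARTER kit for mRNA was used on 1 µg of total RNA. Per the submitters' processing notes reads were placed on mm10; the sources used here name no aligner, counter or annotation and do not say whether strand was used. Groups came from the treatment labels. Replicates are separate mice, and no replicate pair agreed within sampling noise (smallest chi-square per degree of freedom 77.8).

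Tests were edgeR's quasi-likelihood test (edgeR 4.0.16, R 4.3.3, robust) on the deposited counts of all genes, 9 libraries in 1 fit, TMM scaling, filterByExpr (minimum count 10, total 15) and Benjamini-Hochberg adjustment over 18259 genes at 0.05. Standard errors were taken from the F statistic, with 95% intervals. Levels are CPM on TMM-scaled sizes; a count of 0 is given a floor of 3 counts per library. Alternatives were DESeq2 1.42.0, limma 3.58.1 (voom, and log2 of FPKM plus 0.1 or 1), RLE, library size alone, no filter, a replicate block, only the 2 groups compared, and leaving out libraries. The code was tested on simulated data with 200 genes changed by known folds in each comparison. At the adjusted threshold of 0.05 DESeq2 made 75, 65 and 49 false calls, and edgeR made 4, 4 and 2. These are for aspirin over control, hydrogel over control and hydrogel over aspirin. Of the 4-fold changes DESeq2 recovered 74.6%, 79.1% and 70.1%, and edgeR 40.3%, 32.8% and 31.3%. Of the 8-fold changes DESeq2 recovered 97.0%, 87.9% and 87.9%, and edgeR 78.8%, 66.7% and 62.1%. The simulated counts used the spread that edgeR fitted to each gene and held no library set apart as Aspirin replicate 1 is. DESeq2's calls may thus hold more false ones than its threshold states.

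The members and the gene lists were chosen with earlier results of these data known. Named genes are the members, their neighbours on chromosome 5, other receptors and ligands of the family, up to 4 genes per list by smallest unadjusted p, a fixed set of inflammatory genes and the 5 closest profiles; genes given at 0 counts in a library and Mthfd2l, Ereg and the κB letters were picked after the values or sequences were seen. Upstream sequences are from RefSeq (GRCm38.p6), which matched 4 of the 5 members. Cxcl5 had no match, so its upstream sequence was not searched.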

Additional observations from a re-analysis of the deposited data

How the results depend on the processing

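Across 298 values of the members under the alternatives, 286 kept their direction and side of the threshold, 7 passed it where edgeR on all libraries did not, and 5 changed sign. DESeq2 called 101 genes for aspirin over control, 18 for hydrogel over control, 157 for hydrogel over aspirin and 153 for any difference, where edgeR called 0. Its log2 fold changes past the threshold were 4.06 for Cxcl2 and 5.92 for Cxcl5 in aspirin over control and -6.63 for Cxcl5 in hydrogel over aspirin, and its adjusted p for any difference was 0.0478 for Cxcl1, 0.0182 for Cxcl2 and 1.30e-05 for Cxcl5. limma-voom gave 4.34 ± 2.95 for Cxcl5 and 3.38 ± 1.76 for Cxcl2 in aspirin over control (unadjusted p = 0.176 and 0.0862), limma on log2(FPKM + 1) gave 2.36 for Cxcl5, and limma-voom turned Cxcr2 in aspirin over control to -0.056. The cause of these differences between tools was not tested.

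Whether the replicate numbers pair the samples was not settled. After each group was centred on its own mean, 7 of 9 same-number pairs correlated above 0.1. The best match had the same number in 9 of 18 cases. With the replicate block 1 gene was called for hydrogel over aspirin and no member passed.

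Leaving out 1 library each time, calls ran from 0 to 0 for aspirin over control and for hydrogel over control, from 0 to 2 for hydrogel over aspirin (2 without Aspirin replicate 3) and from 0 to 1 for any difference (without Aspirin replicate 2), where the adjusted p of Cxcl5 ran from 0.0341 to 0.979. For hydrogel over control the log2 fold change ran from -0.83 to 1.09 for Cxcl1 (-0.83 without Hydrogel replicate 2, -0.17 without Control replicate 2), from -0.34 to 1.58 for Cxcl2 (-0.34 without Hydrogel replicate 2) and from -1.07 to 0.17 for Cxcl5 (0.17 without Control replicate 1). Without both Aspirin replicate 1 and Hydrogel replicate 3, an alternative chosen after seeing the data, Cxcl5 stood at 5.70 for aspirin over control and -6.53 for hydrogel over aspirin, with edgeR's adjusted p at 0.636 and 0.986, and at 0.999 for any difference.

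With library size alone as the scale, the median over all genes shifted by 0.23 for aspirin over control, -0.23 for hydrogel over control and -0.46 for hydrogel over aspirin, and no member changed sign under it. Cxcl3 was tested only where no filter was used or where a library was left out (8.01 for aspirin over control without a filter, edgeR's adjusted p = 0.725, a fold that depends on the prior count), and Cxcl5 could not be fitted with only the hydrogel libraries and 1 other group, since it was filtered out there. Depth limits the ligands in 7 libraries, where single genes rest on 0 to 46 counts.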
